A study of Mus musculus with 12 samples.

Results

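The nonfibrillar interstitial collagens were followed in nuclei of mouse lung as 10 genes, Col6a1, Col6a2, Col6a3, Col8a1, Col12a1, Col13a1, Col14a1, Col15a1, Col16a1 and Col18a1, of 31053 genes in the count tables. The members were taken by gene symbol alone, and their raw unique molecular identifier (UMI) counts were read in all 12 libraries. C57BL/6J mice aged 7 weeks received bleomycin or PBS intratracheally, then NVP-BHG712 (a kinase inhibitor directed at the ephrin receptor EphB4) or the vehicle alone (N-methyl-2-pyrrolidone in PEG300) by daily oral gavage for 5 days from day 5, and lungs were taken on day 14. The 4 groups were PBS_vehicle, PBS_NVP, Bleo_vehicle and Bleo_NVP, with 3 libraries each, 1 per mouse. All mice were wild-type, and every group received gavage, so that PBS_vehicle carried both control treatments.

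Collagens that do not build the thick banded fibrils decorate, connect or anchor them. Type VI collagen, assembled from the products of Col6a1, Col6a2 and Col6a3, forms beaded microfilaments around cells. Types XII, XIV and XVI (Col12a1, Col14a1, Col16a1) belong to the fibril-associated collagens with interrupted triple helices, type VIII (Col8a1) is a short-chain network collagen of vessel walls, type XIII (Col13a1) is a transmembrane collagen, and types XV and XVIII (Col15a1, Col18a1) are basement membrane proteoglycans, the latter the source of endostatin. In mouse lung, Col13a1 and Col14a1 are widely used to tell apart fibroblast populations.

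Of 47319 nuclei that passed the filters, 2708 were removed as likely doublets and 44611 were used, between 1168 and 11867 per library. Total UMIs ranged from 3556084 to 61947690 per library. Nuclei were clustered without any collagen gene and named by marker genes into 18 classes, written below without the suffix "-like" that such marker-based names call for. The 859 nuclei of 2 clusters stayed unnamed. Fibroblast nuclei numbered 9903 in all (341 to 2021 per library). In them 8 of 9 fibroblast markers had UMIs in every library, but the summed level of the 9 was 1981 to 3929 CPM (counts per one-million UMIs) in Bleo_vehicle against 5354 to 6698 in PBS_vehicle, 5325 to 6947 in PBS_NVP and 5158 to 6834 in Bleo_NVP. The 3 Bleo_vehicle libraries also stood apart in mitochondrial UMIs, with medians of 0.668% to 2.56% per nucleus against at most 0.0496% in the other 9 libraries. They alone were labelled with batch numbers (6, 6 and 7). The PBS groups carried run numbers 1 to 3 and Bleo_NVP run number 4, and the labels do not relate run to batch numbers. In every comparison with a bleomycin group, run or batch and group therefore cannot be told apart. In any 2 libraries at most 0.845% of barcodes were shared.

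The members lie on 6 chromosomes of the mm10 (GRCm38) build in the GENCODE M21 annotation. Col6a2 (chromosome 10, 76595762 to 76623630), Col6a1 (chromosome 10, 76708792 to 76726168) and Col18a1 (chromosome 10, 77052178 to 77166548) follow each other on the minus strand, and Col13a1 (chromosome 10, 61838236 to 61979108) lies on the same strand. Col6a3 is at chromosome 1, 90765923 to 90843971 (minus), Col8a1 at chromosome 16, 57624258 to 57754737 (minus) and Col12a1 at chromosome 9, 79598991 to 79718831 (minus). Col14a1 (chromosome 15, 55307750 to 55520803), Col15a1 (chromosome 4, 47208161 to 47313167) and Col16a1 (chromosome 4, 130047840 to 130099283) are on the plus strand. Each gene is mostly intron, with exons covering between 3.27% of Col13a1 and 29.9% of Col6a2, which matters in nuclei, where unspliced RNA is abundant. A gene of the opposite strand that is also in the tables overlaps Col12a1, Col14a1, Col15a1 and Col18a1. Whether counting used strand is not given in the sources used here, and the part of the overlapping genes in these counts was not tested.

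The promoter windows (250 bases before to 50 after the RefSeq start site, GRCm38.p6) are shown for the type VI chains, whose products assemble together, for Col13a1, whose UMIs came mostly from fibroblasts, and for Col8a1, which was low in fibroblasts and high in mural cells. RefSeq windows matched 8 of the 10 members. For Col6a2, which has 2 windows, the one whose start site is the 5′ end of the annotated gene is given. The windows lie on the minus strand at chr10:76725995-76726294 (Col6a1), chr10:76623581-76623880 (Col6a2), chr1:90843922-90844221 (Col6a3), chr10:61979059-61979358 (Col13a1) and chr16:57754688-57754987 (Col8a1). Each runs 5′ to 3′ on that strand, and capitals mark matches on either strand to 5 motifs, which are the TATA box, the GC box, the core SMAD motif, the AP-1 motif and the CArG box.
Col6a1: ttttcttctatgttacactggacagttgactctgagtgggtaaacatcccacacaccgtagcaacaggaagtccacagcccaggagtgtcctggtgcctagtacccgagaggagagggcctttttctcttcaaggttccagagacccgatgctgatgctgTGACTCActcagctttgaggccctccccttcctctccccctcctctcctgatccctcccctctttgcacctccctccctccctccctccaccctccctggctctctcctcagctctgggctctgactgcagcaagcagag
Col6a2: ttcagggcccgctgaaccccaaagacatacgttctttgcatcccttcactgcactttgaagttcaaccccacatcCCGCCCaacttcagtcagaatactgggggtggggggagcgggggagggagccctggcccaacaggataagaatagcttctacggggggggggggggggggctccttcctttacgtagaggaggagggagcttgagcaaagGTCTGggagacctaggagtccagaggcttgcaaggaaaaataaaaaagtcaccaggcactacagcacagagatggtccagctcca
Col6a3: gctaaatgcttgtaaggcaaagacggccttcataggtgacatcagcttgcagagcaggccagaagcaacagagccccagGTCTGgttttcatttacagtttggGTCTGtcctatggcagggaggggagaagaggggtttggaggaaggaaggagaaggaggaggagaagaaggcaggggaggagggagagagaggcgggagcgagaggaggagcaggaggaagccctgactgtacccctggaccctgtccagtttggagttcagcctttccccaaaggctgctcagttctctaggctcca
Col13a1: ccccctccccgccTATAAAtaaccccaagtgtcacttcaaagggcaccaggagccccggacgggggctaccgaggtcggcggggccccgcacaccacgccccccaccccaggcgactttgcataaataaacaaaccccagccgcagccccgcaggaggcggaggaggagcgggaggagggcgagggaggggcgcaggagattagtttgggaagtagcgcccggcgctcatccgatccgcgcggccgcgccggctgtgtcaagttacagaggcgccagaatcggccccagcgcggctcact
Col8a1: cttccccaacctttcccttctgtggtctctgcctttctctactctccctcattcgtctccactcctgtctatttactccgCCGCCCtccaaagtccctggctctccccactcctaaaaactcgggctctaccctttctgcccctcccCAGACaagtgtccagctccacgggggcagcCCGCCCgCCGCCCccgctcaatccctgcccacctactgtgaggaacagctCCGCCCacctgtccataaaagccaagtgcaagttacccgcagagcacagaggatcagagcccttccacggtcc
Col6a1 had 1 match to TGANTCA, the AP-1 motif, 90 bases before the start site, a motif in 7.81% of all 32851 windows. Col6a3 had 2 matches to CAGAC, the core SMAD motif, which 49.6% of windows hold. Col8a1 had 4 matches to GGGCGG, the GC box (35.7% of windows), and Col13a1 had TATAAA (13.6% of windows) 237 bases before the start site. None of the 5 windows printed held a CArG box, the serum response element found in 1.63% of windows. These matches describe letters in these windows and were not tested for binding.

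Levels across classes were measured as CPM of UMIs summed per class and library, over the libraries with at least 20 nuclei of the class, and are descriptions. The level was highest in fibroblasts for 4 members (Col6a1, Col6a2, Col6a3 and Col13a1), in smooth muscle for Col8a1 and Col18a1, in mesothelial nuclei for Col14a1, in pericytes for Col16a1, in type I alveolar epithelium for Col12a1 and in venous endothelium for Col15a1. Nuclei of T or NK and of B cells, which should lack most of these genes, served as a measure of free RNA, with median depths of 1265 and 1274.5 UMIs against 3156 in fibroblasts. Their levels reached 26.5 CPM for Col13a1, 25.8 CPM for Col6a1, 41.1 CPM for Col6a3 and 16.6 CPM for Col8a1 in T or NK nuclei, the last from 11 UMIs in all. In B nuclei Col8a1 was at 11.6 CPM from 19 UMIs. Shares of UMIs by class are pooled over libraries, so that the deeper libraries weigh more.

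**Figure D1:**
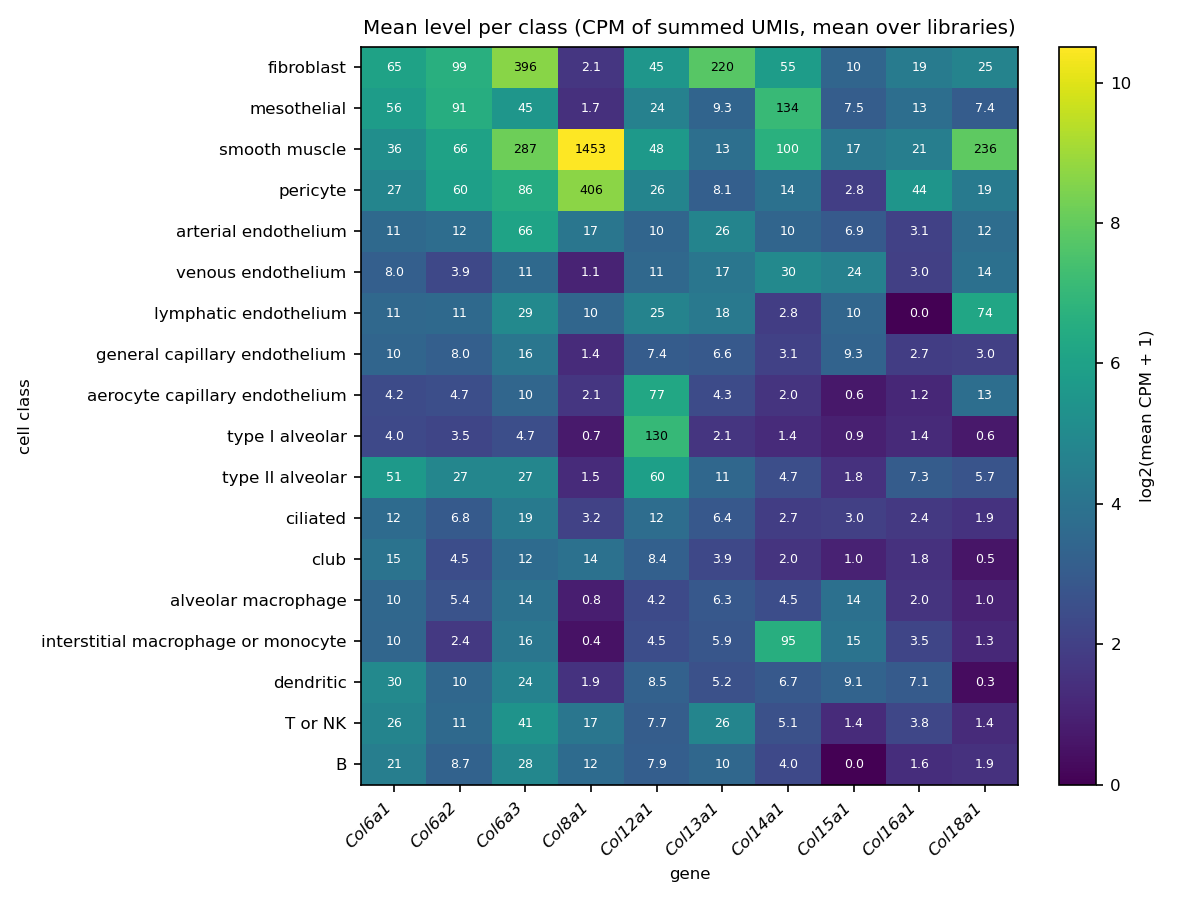
Mean level of each member (columns) in the 18 named classes (rows), as CPM of summed UMIs averaged over the libraries with at least 20 nuclei. Colour is log2(mean CPM + 1) and the printed value is the mean CPM. Col8a1 stands out in smooth muscle (1453) and pericytes (406), Col12a1 in type I alveolar nuclei (130) and Col13a1 in fibroblasts (220).

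The 3 type VI chains were spread unequally over the mesenchyme. Col6a3, the large chain, reached 396 ± 45.3 CPM (SD, n = 12 libraries) in fibroblasts, and fibroblasts exceeded smooth muscle (287 ± 81.7 CPM, n = 3) in all 3 libraries that held enough of both. Fibroblast nuclei carried 87.6% of all Col6a3 UMIs. Col6a2 was at 98.9 ± 19.7 CPM (n = 12) in fibroblasts and 91.2 ± 45.5 CPM (n = 9) in mesothelial nuclei, and fibroblasts were the higher in 4 of 9 libraries, so their order is not resolved. Col6a1 was at 64.6 ± 18.5 CPM in fibroblasts, 55.6 ± 24.4 CPM in mesothelial and 50.6 ± 21.7 CPM (n = 12) in type II alveolar nuclei. By group the fibroblast share of Col6a1 UMIs was 38.0% ± 1.84 (SD, n = 3) in Bleo_vehicle, against 67.7% ± 9.23 in PBS_vehicle, 66.8% ± 3.12 in PBS_NVP and 73.5% ± 5.70 in Bleo_NVP. The type II alveolar share was 24.1% ± 3.24 in Bleo_vehicle, against 12.2% ± 3.80, 13.1% ± 2.34 and 9.28% ± 1.66 in the other groups in that order. The fibroblast shares of Col6a2 and Col6a3 were also lowest in Bleo_vehicle, at 57.2% ± 1.89 and 78.5% ± 6.43. In PBS_vehicle they were 82.5% ± 6.56 and 91.4% ± 3.76. Their type II alveolar shares were highest in Bleo_vehicle, at 13.9% ± 5.05 and 4.73% ± 1.68. These shares were not tested between groups. Pooled, fibroblasts gave 55.7% of Col6a1 UMIs and type II alveolar nuclei 17.8%, against 2.12% and 10.3% for Col6a3 and Col6a2 in the latter class. Across the 18 class means, Pearson's r was 0.84 between Col6a1 and Col6a2, 0.85 between Col6a2 and Col6a3 and 0.74 between Col6a1 and Col6a3, as a description over classes that share libraries.

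Col13a1 was the most fibroblast-restricted member. It was at 220 ± 46.8 CPM (n = 12) in fibroblasts, 8.32 times the next class, T or NK nuclei, and higher in all 7 libraries with both. Fibroblasts held 92.2% of its UMIs. Genes with the most similar class pattern among 12039 compared were C7 (r = 0.95), Pdgfra (r = 0.94) and Ms4a4d (r = 0.94). For Col6a3 they were Prdm6 (r = 0.97), Itga8 (r = 0.97) and Nox4 (r = 0.96), for Col6a2 Col3a1, Trabd2b and Meg3 (r = 0.92 to 0.91), and for Col6a1 Acss3, Dclk1 and Klhl29 (r = 0.86 to 0.85).

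Among the named classes Col8a1 was highest in mural cells. Its level was 1453 ± 495 CPM (n = 3 libraries) in smooth muscle, 406 ± 150 CPM (n = 8) in pericytes and 16.6 CPM or lower in every other named class. In fibroblasts it was 2.12 ± 2.93 CPM (n = 12), so that these carried 2.79% of its UMIs. In smooth muscle the libraries with enough nuclei gave 1770 CPM in PBS_NVP replicate 1, 882 in Bleo_vehicle replicate 2 and 1707 in Bleo_vehicle replicate 3. In pericytes the 8 libraries ranged from 172 CPM (Bleo_vehicle replicate 2) to 635 CPM (Bleo_NVP replicate 2), with no separation of the groups. The class patterns most like it were those of Cacng7, Postn and Gucy1b1 (r = 0.90, 0.90 and 0.88).

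A large part of the Col8a1 signal lay outside the named classes. One unnamed cluster of 118 nuclei, led by Tcerg1l, Kcnip1, Spock3, Snap25 and Pcsk1, held 1699 Col8a1 UMIs, 41.6% of the total, and 97 of its nuclei had at least 1. Its summed level was 2923 CPM. All 12 libraries contributed, with 3 to 24 nuclei each. The PBS_vehicle libraries were at 7158, 5157 and 698 CPM and the PBS_NVP libraries at 4837, 1252 and 1305 CPM. After bleomycin the levels were 1849, 788 and 2693 CPM with vehicle and 2542, 3158 and 1322 CPM with NVP-BHG712. The lowest of these exceeded the highest pericyte library, 635 CPM, and the groups overlapped. The other unnamed cluster, of 741 nuclei, was at 13.8 CPM.

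**Figure D2:**
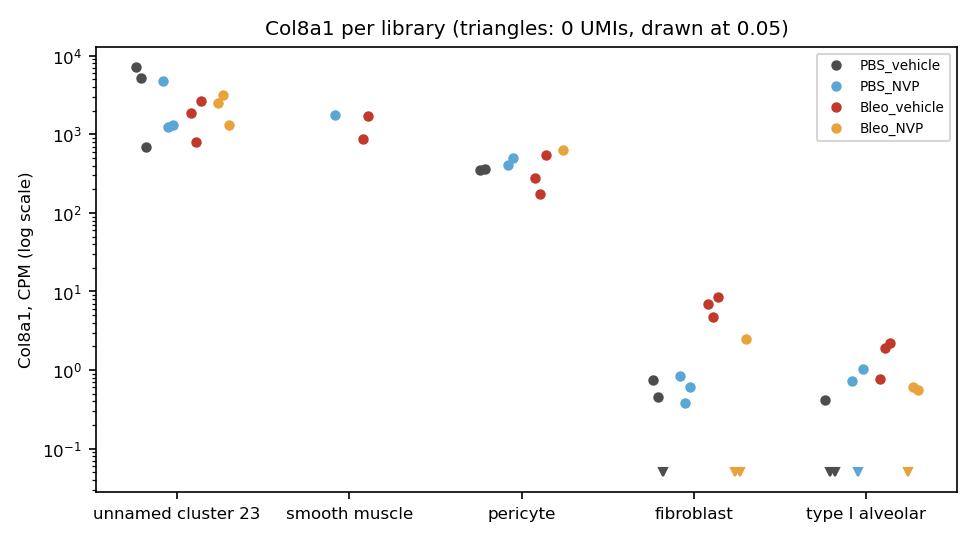
Col8a1 level per library on a log axis (CPM) in the unnamed cluster led by Tcerg1l (cluster 23), smooth muscle, pericytes, fibroblasts and type I alveolar nuclei, coloured by group. Triangles are libraries with 0 UMIs, drawn at 0.05. In fibroblasts the 3 Bleo_vehicle libraries lie between 4.6 and 8.5, and the mural classes and the unnamed cluster lie above 170 in every library.

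Col12a1 was higher in alveolar epithelium and aerocytes than in fibroblasts on average. Type I alveolar nuclei, the thin gas-exchange epithelium, held 56.9% of its UMIs at 130 ± 52.2 CPM (n = 12), above aerocyte capillary endothelium, the capillary class that lies beside them (77.1 ± 36.2 CPM, n = 12), in 10 of 12 libraries. Type II alveolar nuclei were at 59.7 ± 29.8 CPM and fibroblasts at 45.2 ± 45.3 CPM. In type I alveolar nuclei the level, on the scale used for group tests (TMM-scaled CPM), was 53.0, 148 and 188 CPM in PBS_vehicle and 50.8, 154 and 163 in PBS_NVP. It was 49.8, 109 and 165 CPM in Bleo_vehicle and 206, 169 and 139 in Bleo_NVP. The 2 PBS libraries of run number 1 (replicate 1 in each PBS group) were both about 50 CPM, and the other 4 PBS libraries were 148 CPM or higher. Those 2 were also the deepest PBS libraries, so run and depth cannot be told apart, and neither was tested. The genes most alike were Igfbp7, Tln2 and Ctdspl (r = 0.85 to 0.80).

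Col14a1 was highest in mesothelial nuclei (134 ± 105 CPM, n = 9) and smooth muscle (100 ± 38.1 CPM, n = 3), but the interstitial macrophage or monocyte nuclei also carried it, at 95.0 ± 66.7 CPM (n = 11), and exceeded fibroblasts (55.0 ± 16.8 CPM) in 8 of 11 libraries. Fibroblasts still held 69.3% of the UMIs. Col15a1 was low throughout, at most 23.8 ± 15.8 CPM (n = 11), in venous endothelium, and alveolar macrophages held 19.1% of its UMIs at 13.8 ± 5.01 CPM (n = 12), where T or NK and B nuclei were at 1.42 CPM and 0. Col16a1 was at 43.6 ± 23.9 CPM (n = 8) in pericytes and 19.4 ± 6.76 CPM in fibroblasts, and Col18a1 at 236 ± 173 CPM (n = 3) in smooth muscle, 74.5 ± 36.0 CPM (n = 7) in lymphatic endothelium and 24.8 ± 6.09 CPM in fibroblasts. The class patterns nearest were Itga5, Ctnnbip1 and Fhl3 for Col15a1 (r = 0.88 to 0.80), Wisp1, Speg and Mirg for Col16a1 (r = 0.92 to 0.88), and Lrch2, Rnf152 and Rhobtb3 for Col18a1 (r = 0.88 to 0.86).

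Across fibroblast subtypes the mean levels of Col12a1, Col13a1, Col14a1 and Col15a1 varied more than those of the type VI chains. Subclustering gave alveolar (3001 nuclei), Agtr1b Itgbl1 Ppp1r3a (1604), adventitial (1064), fibrotic (1031) and peribronchial (399) subtypes, the last of which also carried 5 of 7 smooth muscle markers. Agtr1b, Itgbl1 and Ppp1r3a averaged 0.91 on the log2 scale above other fibroblast nuclei in the subtype so named. In the adventitial subtype they averaged 2.5 above, so that name does not set the pair apart. A further 2263 nuclei, led by mitochondrial genes, Hbb-bs and Lyz2, stayed unnamed and made up 23.1% to 32.95% of fibroblast nuclei in Bleo_vehicle, 16.2% to 17.9% in PBS_vehicle, 15.2% to 21.4% in PBS_NVP and 16.1% to 26.1% in Bleo_NVP. They are included in the fibroblast tests, and with only the named subtypes, an alternative chosen after seeing the data, Col8a1 passed in Bleo_vehicle against PBS_vehicle and not in Bleo_NVP against Bleo_vehicle. Col14a1 was at 368 ± 147 CPM (n = 12 libraries) in adventitial fibroblasts, the vessel- and airway-sheath population, and 202 ± 88.6 CPM (n = 10) in peribronchial fibroblasts, against 8.53 ± 4.10 CPM (n = 11) in alveolar fibroblasts, and adventitial exceeded peribronchial in 9 of 10 libraries. Col12a1 was at 292 ± 180 CPM (n = 10) in peribronchial fibroblasts, 3.62 times the fibrotic subtype (80.6 ± 96.0 CPM, n = 12) and higher in 9 of 10 libraries. Alveolar fibroblasts had the least Col12a1, 15.2 ± 11.5 CPM.

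Col13a1 ran the other way across subtypes. It was at 357 ± 147 CPM (n = 12) in fibrotic, 239 ± 59.5 CPM in alveolar, 231 ± 46.5 CPM in Agtr1b Itgbl1 Ppp1r3a and 120 ± 72.9 CPM in adventitial fibroblasts, with 15.8 ± 18.7 CPM in peribronchial ones, which were below adventitial in all 10 libraries with both. Fibrotic exceeded alveolar in 10 of 11 libraries, whereas alveolar exceeded Agtr1b Itgbl1 Ppp1r3a in 4 of 11. Col15a1 was at 33.9 ± 43.6 CPM in fibrotic and 33.1 ± 17.8 CPM in adventitial fibroblasts, near 0 in alveolar ones (0.359 ± 0.648 CPM). The fibrotic mean rested on Bleo_vehicle replicate 1, at 156 CPM where the other 11 libraries were at 72.7 CPM or lower, and fibrotic exceeded adventitial in 2 of 12 libraries. The type VI chains differed less. Col6a3 lay between 401 and 489 CPM in every subtype but the adventitial, at 232 ± 95.5 CPM and below Agtr1b Itgbl1 Ppp1r3a in 11 of 12 libraries. Col6a2 lay between 72.1 and 118 CPM and Col6a1 between 49.8 and 81.7 CPM, and no neighbours in either order kept that order in every library.

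**Figure D3:**
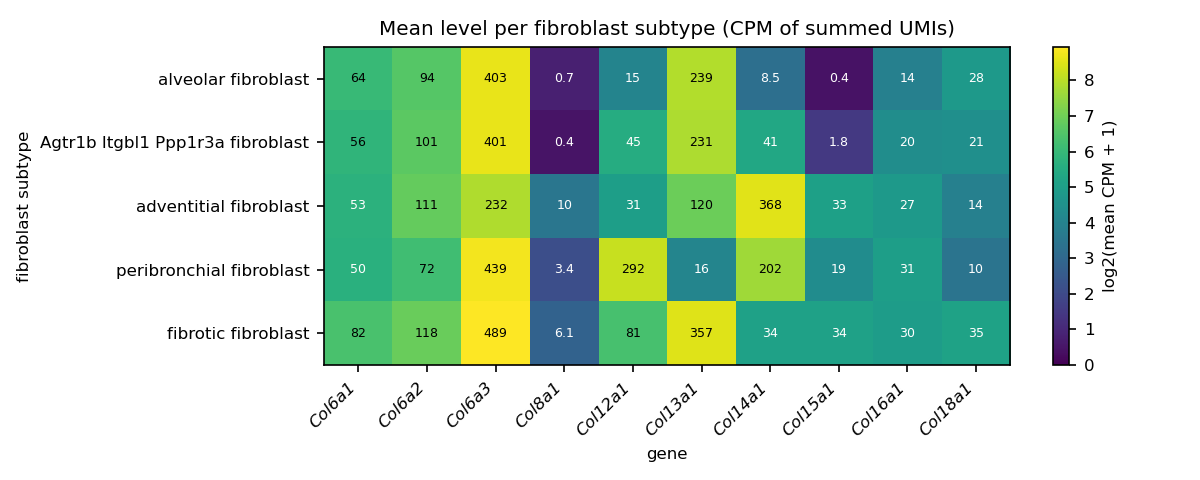
Mean level of each member (columns) in the 5 named fibroblast subtypes (rows), as CPM of summed UMIs averaged over 10 to 12 libraries, with colour as log2(mean CPM + 1). Col14a1 is highest in adventitial (368) and Col12a1 in peribronchial fibroblasts (292), where Col13a1 is lowest (16).

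The comparison of Bleo_vehicle with PBS_vehicle asks which collagens differed after injury. In fibroblast nuclei 1 of 10 members, Col8a1, passed the test (edgeR quasi-likelihood, Benjamini-Hochberg adjusted p under 0.05 over 10531 genes), where 3.57% of all genes tested were called. Col8a1 counted 4, 1 and 0 UMIs in PBS_vehicle and 6, 15 and 76 in Bleo_vehicle, that is 0.677, 0.488 and 0 against 6.84, 4.65 and 8.26 TMM-scaled CPM. In PBS_NVP it counted 6, 1 and 1 UMIs and in Bleo_NVP 0, 0 and 4. It therefore passed the filter on low counts only through Bleo_vehicle, the group where it was high, which limits what its test can show. All of these fibroblast levels lie under the mean Col8a1 level of T or NK (16.6 CPM) and B nuclei (11.6 CPM), so by these classes they are not told apart from free RNA. The other immune classes lay lower, at 0.832 CPM in alveolar macrophages, 0.431 in interstitial macrophages or monocytes and 1.91 in dendritic nuclei. The part of free RNA was not tested. The groups did not overlap, and the log2 change was 3.64 ± 0.77 (SE, edgeR adjusted p = 0.0210). The call rested on few molecules, and edgeR's adjusted p was 0.0506 without Bleo_vehicle replicate 3, and 0.0527, 0.0858 and 0.0913 without PBS_vehicle replicates 1, 2 and 3. In bulk sums of a class, fewer nuclei of a subtype and less RNA per nucleus cannot be told apart.

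Col12a1, Col15a1 and Col13a1 also did not overlap between these groups, as 20.1% of genes tested did not, but missed the threshold. Col12a1 was at 27.9, 29.8 and 20.2 CPM in PBS_vehicle and 181, 72.0 and 44.7 in Bleo_vehicle, a log2 difference of 1.84 ± 0.47 (SE, edgeR adjusted p = 0.0506). Col15a1 was at 6.26, 2.93 and 0.632 CPM against 50.2, 12.7 and 12.1, a log2 difference of 2.51 ± 0.66 (edgeR adjusted p = 0.0551). The highest library of both was Bleo_vehicle replicate 1. Col13a1 was at 227, 224 and 271 CPM against 130, 137 and 215, a log2 difference of -0.57 ± 0.19 (edgeR adjusted p = 0.121). Leaving out Bleo_vehicle replicate 3, the library nearest to PBS_vehicle for all 3 genes, brought each past the threshold, at adjusted p = 0.00647, 0.0197 and 0.00889 by edgeR. Without replicate 1 instead, the log2 differences of Col12a1 and Col15a1 were 1.13 and 1.64. Over all libraries left out in turn, edgeR's adjusted p reached 0.179 for Col12a1, 0.171 for Col15a1 and 0.373 for Col13a1. With the replicate block, edgeR's adjusted p was 0.0407, 0.00790 and 0.0415 for Col12a1, Col15a1 and Col13a1. Its numbers do not pair these groups, whose same-numbered fibroblast libraries correlated at r = -0.004, 0.065 and -0.012.

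The other 6 members differed by at most 0.49 on the log2 scale. For the type VI chains the log2 difference was -0.20 ± 0.29 (Col6a1), 0.02 ± 0.25 (Col6a2) and -0.08 ± 0.16 (Col6a3), each with adjusted p of 0.80 or more by edgeR. Col6a3 was at 381, 370 and 432 CPM in PBS_vehicle and 392.2, 342 and 381 in Bleo_vehicle, overlapping values. Col14a1 (-0.35 ± 0.33), Col16a1 (0.49 ± 0.27) and Col18a1 (-0.19 ± 0.27) also overlapped.

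Values that moved with these results stand beside them. The fibrotic subtype made up 27.9%, 14.7% and 10.7% of fibroblast nuclei in the Bleo_vehicle libraries against 5.38% to 8.59% in PBS_vehicle, and the alveolar subtype 1.60%, 17.6% and 28.4% against 36.3% to 38.4%. Within fibroblast nuclei the 7 pericyte markers, none at 0, summed to 116 to 270 CPM in Bleo_vehicle against 79.1 to 95.7 in PBS_vehicle. The list includes Postn, also a fibrotic marker. The 7 smooth muscle markers, none at 0, summed to 47.5 to 94.5 against 32.1 to 103 CPM. The 9 type I alveolar markers, none at 0, summed to 157 to 386 against 72.1 to 703 CPM, and the 8 alveolar macrophage markers, none at 0, to 104 to 183 against 57.8 to 138 CPM. Their part in the results was not tested. Without the 4 fibroblast subclusters led by genes of other classes, an alternative chosen after seeing the data, Col8a1 still passed in this comparison.

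**Figure D4:**
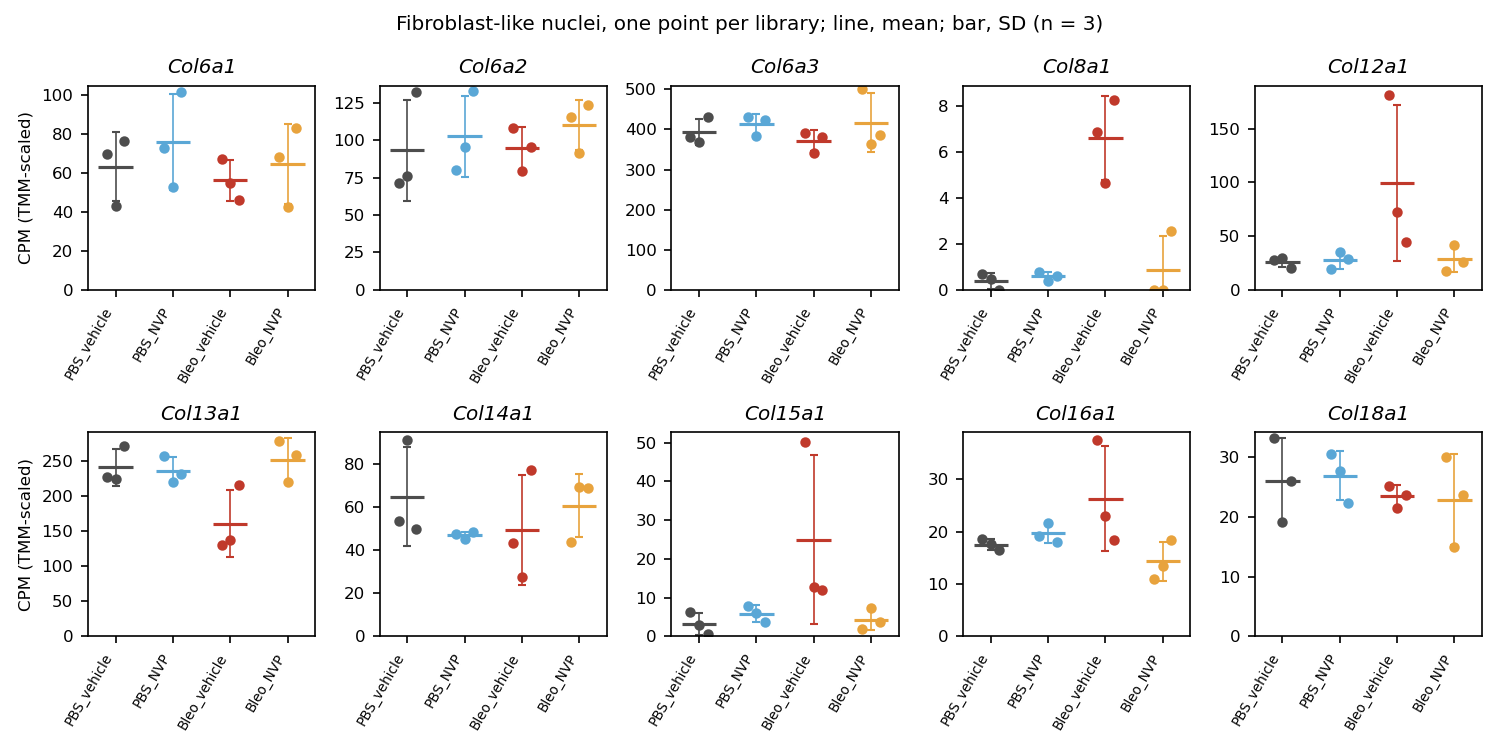
Level of each member in fibroblast nuclei (TMM-scaled CPM) in the 4 groups, 1 point per library, with the mean as a line and the SD as a bar (n = 3). In Bleo_vehicle, Col8a1, Col12a1 and Col15a1 lie above and Col13a1 below all libraries of PBS_vehicle and Bleo_NVP, and the type VI chains overlap in all groups.

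Libraries of Bleo_NVP were set against those of Bleo_vehicle to ask what differed with the inhibitor after injury. The same 4 genes did not overlap, in the opposite direction, as 29.3% of all genes tested did not. This comparison shares the Bleo_vehicle libraries with the former, so its values are given on their own. Again 1 of 10 members passed in fibroblasts, where 6.66% of genes were called. It was Col8a1, which entered the test only through its counts in Bleo_vehicle. Col8a1 counted 0, 0 and 4 UMIs in Bleo_NVP (0, 0 and 2.55 CPM), with a log2 change of -2.89 ± 0.82 (edgeR adjusted p = 0.0479), again at levels under those of T or NK and B nuclei. Without Bleo_NVP replicate 3, which held all 4 UMIs, the fitted change was -7.52 against a group at 0, which is no bound, and without replicate 2 it was -2.12. Its call was lost without any 1 of the 12 libraries except Bleo_NVP replicate 3, with adjusted p between 0.0427 and 0.174 by edgeR over the 12 fits, and at 0.0715 without the 4 subclusters led by genes of other classes.

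Col12a1 was at 18.0, 41.9 and 26.1 CPM in Bleo_NVP, a log2 difference of -1.67 ± 0.48 from Bleo_vehicle (edgeR adjusted p = 0.0564). Col15a1 was at 2.00, 7.22 and 3.83 CPM, a difference of -2.23 ± 0.70 (adjusted p = 0.0736 by edgeR), and Col13a1 at 278, 219 and 258 CPM, a difference of 0.63 ± 0.19 (adjusted p = 0.0638 by edgeR). Bleo_vehicle replicate 3 was again the library nearest to the other group, and without it the 3 passed, at 0.00934, 0.0336 and 0.00540 by edgeR. With other libraries left out, edgeR's adjusted p reached 0.177 for Col12a1, 0.211 for Col15a1 and 0.214 for Col13a1. At their smallest, the log2 differences were -0.95, -1.37 and 0.51 in that order. Col16a1 was at 11.01, 13.5 and 18.5 CPM against 37.6, 22.96 and 18.4, values that overlapped narrowly, with a difference of -0.77 ± 0.29 (edgeR adjusted p = 0.127). The type VI chains differed by 0.16 to 0.23 on the log2 scale with adjusted p of 0.59 or more by edgeR, Col14a1 by 0.27 ± 0.34 and Col18a1 by -0.06 ± 0.28. The fibrotic subtype was 6.88% to 8.71% of fibroblast nuclei in Bleo_NVP, and the pericyte markers within fibroblast nuclei summed to 65.6 to 73.0 CPM. Their part in the differences was not tested.

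In the PBS groups and in Bleo_NVP against PBS_NVP no member passed in fibroblasts, as no gene did (0% called in both by edgeR, with 59 and 322 genes at an unadjusted p under 0.05, and 0 members called by DESeq2). The largest member differences were 0.68 ± 0.67 (Col15a1) for PBS_NVP against PBS_vehicle and -0.44 ± 0.29 (Col16a1) for Bleo_NVP against PBS_NVP. Col14a1 did not overlap between the PBS groups, at 47.5, 45.3 and 48.4 CPM in PBS_NVP and 53.5, 91.3 and 49.9 in PBS_vehicle (log2 difference -0.46 ± 0.33), as 4.01% of genes did not. Whether the inhibitor's difference depended on bleomycin was tested as an interaction, and no member passed (0.228% of genes called, 24 in all by edgeR, with 1406 at an unadjusted p under 0.05, and 0 members called by DESeq2). The nearest was Col15a1, at -2.91 ± 0.98 (edgeR adjusted p = 0.228).

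Over all nuclei of a library 2 members passed in Bleo_NVP against Bleo_vehicle, where 5.51% of 14442 genes were called. Col13a1 was at 36.6, 41.2 and 45.3 CPM in Bleo_vehicle and 86.0, 71.9 and 80.6 in Bleo_NVP and rose by 0.95 ± 0.16 on the log2 scale (edgeR adjusted p = 0.0105). Against the 60.2, 69.4 and 93.2 CPM of PBS_vehicle, the Bleo_vehicle libraries were lower by a log2 change of -0.84 ± 0.16 (edgeR adjusted p = 0.0236, 2.44% of genes called). The calls were lost without Bleo_NVP replicate 1 or 3 in the former (adjusted p = 0.0564 and 0.0581 by edgeR) and without PBS_vehicle replicates 2 or 3 or Bleo_vehicle replicates 1 or 2 in the latter. Fibroblast nuclei were 17.0% to 26.2% of all nuclei in Bleo_vehicle and 18.4% to 28.9% in PBS_vehicle, overlapping shares. Over all nuclei the 9 fibroblast markers, none at 0, summed to 658 to 1168 CPM in Bleo_vehicle, 1907 to 2751 in PBS_vehicle and 2170 to 2599 in Bleo_NVP, so they moved with Col13a1, and their part in its change was not tested.

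Col15a1 was at 14.4, 9.25 and 6.91 CPM over all nuclei in Bleo_vehicle and 2.07, 4.94 and 3.08 in Bleo_NVP with a log2 change of -1.505 ± 0.37 (edgeR adjusted p = 0.0375). The call was lost without PBS_NVP replicate 2 or 3, Bleo_vehicle replicate 1 or 2, or Bleo_NVP replicate 1 or 3, with adjusted p up to 0.146 by edgeR. Col8a1 and Col12a1, both mostly outside fibroblasts, differed by -0.73 ± 0.70 and 0.12 ± 0.38 over all nuclei (edgeR adjusted p = 0.539 and 0.877). Col8a1 ranged from 1.91 to 27.5 CPM within PBS_vehicle alone. The interaction gave no member (0.298% of genes called, 43 by edgeR), with Col13a1 nearest at 1.03 ± 0.23 (edgeR adjusted p = 0.0894). DESeq2 called Col13a1. So did edgeR with the replicate block (adjusted p = 0.0358), whose numbers pair the PBS groups only, and without PBS_vehicle replicate 1 (adjusted p = 0.0320). With another library left out, edgeR's adjusted p reached 0.261. No gene, and so no member, was called for the PBS groups or for Bleo_NVP against PBS_NVP over all nuclei (0% by edgeR and 0 members by DESeq2).

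Outside fibroblasts the calls were all of type VI chains. The test was run in 10 other classes, where members passed the filter on low counts as 15 gene and class pairs. Of these, 4 were in type I and 4 in type II alveolar nuclei, and 0 in ciliated nuclei, so the filter limits which members could be called. In Bleo_NVP against Bleo_vehicle 2 pairs were called (background 3.71%) and in Bleo_vehicle against PBS_vehicle 2 (background 3.48%), with 0 in the other comparisons (0% in both NVP-against-PBS comparisons that lack Bleo_vehicle, 0.512% for the interaction, and 0 pairs by DESeq2 in all 3).

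Col6a1 fell in both alveolar epithelial classes in Bleo_NVP against Bleo_vehicle. In type II alveolar nuclei, the surfactant-making epithelium, it was at 129, 71.7 and 58.5 CPM in Bleo_vehicle and 29.9, 30.7 and 35.3 in Bleo_NVP, which gave a log2 change of -1.33 ± 0.33 (edgeR adjusted p = 0.0333, 5.58% of genes called in that class). The PBS_vehicle libraries lay at 46.6, 36.9 and 40.1 CPM, between the bleomycin groups. In type I alveolar nuclei it was at 6.42, 8.04 and 7.30 CPM (8, 21 and 83 UMIs) against 1.76, 0.644 and 2.88 (2, 1 and 5 UMIs), a log2 change of -2.01 ± 0.51 (edgeR adjusted p = 0.0334, 5.26% of genes called), at a level under that of T or NK nuclei. With at most 5 UMIs in any Bleo_NVP library, the type I test rested on counts in Bleo_vehicle, the group where Col6a1 was high. That limits what it can show. Neither pair of groups overlapped. The type II call was lost without any 1 of Bleo_vehicle replicates 1 and 2 and the 3 Bleo_NVP libraries, and the type I call without Bleo_vehicle replicates 2 or 3 or any Bleo_NVP library, with adjusted p up to 0.123 and 0.134 by edgeR.

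Col6a2 in type II alveolar nuclei was at 19.98, 12.3 and 10.7 CPM in PBS_vehicle and 69.7, 32.2 and 58.1 in Bleo_vehicle and rose by 1.68 ± 0.36 on the log2 scale (edgeR adjusted p = 0.0186, 4.16% of genes called). It was lost without PBS_vehicle replicate 2 or 3 (adjusted p = 0.0710 and 0.0699 by edgeR). Col6a3 in general capillary endothelium was at 7.198, 10.4 and 4.08 CPM (14, 6 and 1 UMIs) against 45.2, 55.9 and 14.96 (6, 51 and 50 UMIs) and rose by 2.20 ± 0.61 (edgeR adjusted p = 0.0459, 4.61% of genes called). In T or NK nuclei Col6a3 was at 140 and 79.8 CPM in Bleo_vehicle replicates 2 and 3, at 25.5 CPM and 0 in PBS_vehicle replicates 1 and 2. The general capillary level lay under these values except in PBS_vehicle replicate 2. Averaged over libraries, Col6a3 was at 16.3 CPM in general capillary nuclei. Among other immune classes it was at 28.0 CPM in B, 24.4 in dendritic, 16.4 in interstitial macrophage or monocyte and 14.3 in alveolar macrophage nuclei. The part of free RNA in this difference was not tested. The call was lost without any PBS_vehicle library, without Bleo_vehicle replicate 1 or 2 or Bleo_NVP replicate 3, reaching 0.594 without Bleo_vehicle replicate 2, and at 0.0549 with the replicate block.

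The 9 fibroblast markers, none at 0, summed within type II alveolar nuclei to 461 to 742 CPM in Bleo_vehicle, 359 to 597 in PBS_vehicle and 338 to 550 in Bleo_NVP. In general capillary nuclei they were lower in Bleo_vehicle (434 to 881 CPM) than in PBS_vehicle (987 to 2039 CPM), and so in type I alveolar nuclei (296 to 402 against 695 to 927 CPM). Their part in the type VI differences was not tested. The classes' own markers moved as well: the 8 type II alveolar markers summed to 3973 to 10721 CPM in Bleo_vehicle and 12872 to 14226 in PBS_vehicle.

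**Figure D5:**
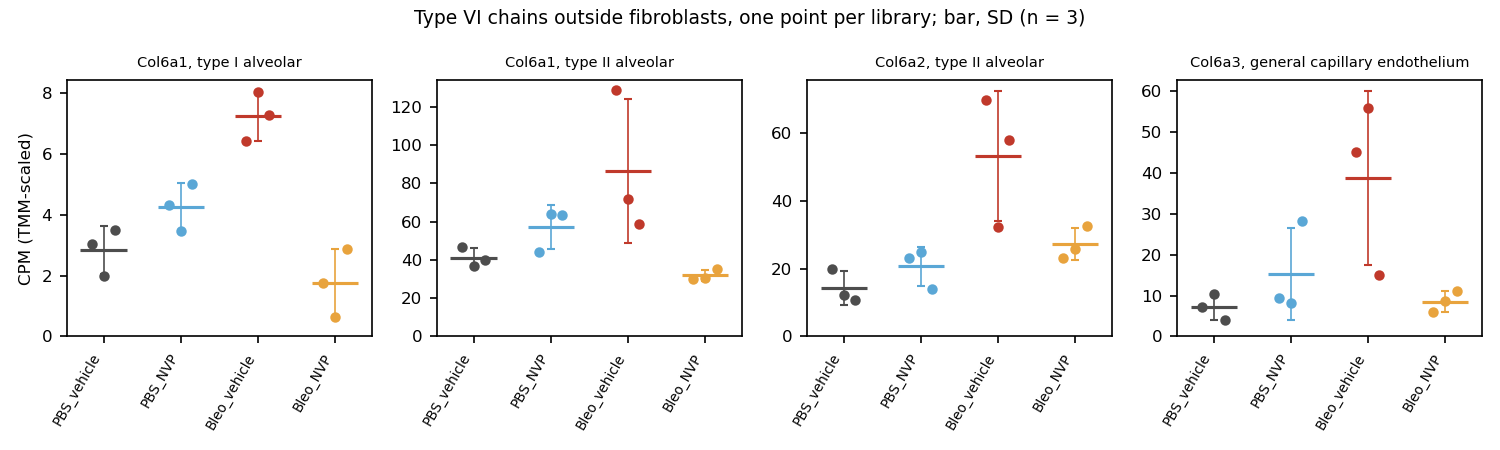
The 4 type VI chain and class pairs that passed in a comparison, as TMM-scaled CPM in the 4 groups, 1 point per library, with the mean as a line and the SD as a bar (n = 3). Col6a1 and Col6a2 in type II alveolar nuclei reach 129 and 69.7 in Bleo_vehicle, and no panel shows an overlap between the 2 groups that passed.

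Within the fibroblast subtypes no member passed in any comparison, over 5 subtypes and 31 gene and subtype pairs, where 1.81% of pairs over all genes were called for Bleo_NVP against Bleo_vehicle, 1.47% for Bleo_vehicle against PBS_vehicle, 0.327% for the interaction and 0% for the remaining 2, by edgeR. DESeq2 called 0 members in every subtype. The smallest edgeR adjusted p was that of Col12a1 in fibrotic fibroblasts, 0.0919, with a log2 difference of 2.71 ± 0.82 for Bleo_vehicle against PBS_vehicle. It passed with the replicate block, whose numbers do not pair these groups, and without Bleo_vehicle replicate 3.

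The proportions of the 3 type VI chains were compared as shares of their summed UMIs, since the chains assemble together. Such shares compare groups only, as UMIs from the ends of unspliced and spliced RNA do not give chain ratios. In fibroblasts Col6a3 made up 72.0% ± 4.18 (SD, n = 3) in PBS_vehicle and 70.1% ± 5.07 in PBS_NVP. After bleomycin it made up 71.3% ± 1.97 with vehicle and 70.5% ± 4.59 with NVP-BHG712. Col6a2 made up 16.6% to 18.7% and Col6a1 10.7% to 12.6% of the group means. All 12 comparisons overlapped, with two-sided exact permutation p between 0.5 and 1 and adjusted p of 1, where 3 libraries against 3 allow no p below 0.1. Over all nuclei, Col6a3 was 68.1% ± 3.30 in PBS_vehicle and 60.4% ± 2.68 in Bleo_vehicle, which did not overlap (exact permutation p = 0.1, adjusted 0.6 over the 12 comparisons, 3 of 3 libraries lower).

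Other genes of collagen biology in fibroblasts were counted by list. Beside the counts stand the shares of all genes called, 6.66% for Bleo_NVP against Bleo_vehicle and 3.57% for Bleo_vehicle against PBS_vehicle. Of 8 fibrillar collagens tested none passed in Bleo_NVP against Bleo_vehicle (median log2 difference -0.69, against -0.05 over all genes), and 2 rose in Bleo_vehicle against PBS_vehicle, Col24a1 (1.89 ± 0.45, edgeR adjusted p = 0.0323) and Col27a1 (0.71 ± 0.18, edgeR adjusted p = 0.0430). Of 12 network and other collagens, Col28a1 (-3.02) and Col4a1 (-1.41), a basement membrane chain, fell in Bleo_NVP against Bleo_vehicle and Col17a1 (2.06) rose, and Col7a1 (4.41), the anchoring fibril collagen, was one of 2 that rose in Bleo_vehicle against PBS_vehicle. Of 21 genes for making and cross-linking collagen, 6 fell and 2 rose in Bleo_NVP against Bleo_vehicle. P4ha3, a prolyl hydroxylase subunit, changed by -3.89 ± 0.82 and Loxl3, a lysyl oxidase, by -2.44 ± 0.55 (edgeR adjusted p = 0.0156 and 0.0232), with Tll1 at -1.88. The collagen receptor Ddr2 rose by 0.63 ± 0.15 in that comparison (edgeR adjusted p = 0.0260), and Itga2 changed by -3.41 ± 0.88, as 2 of 8 receptors called. In Bleo_vehicle against PBS_vehicle, Tll1 (2.71 ± 0.50, edgeR adjusted p = 0.00978) and Loxl3 (2.24 ± 0.51, edgeR adjusted p = 0.0293) rose, and Ddr2 changed by -0.58 ± 0.15 (edgeR adjusted p = 0.0444), as 2 of 21 and 1 of 8 called. No list had a call by edgeR for PBS_NVP against PBS_vehicle, Bleo_NVP against PBS_NVP or the interaction.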

How the data were processed

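Single-nucleus RNA was measured in 12 mouse lungs, as DAPI-sorted nuclei of frozen tissue in droplet libraries. The authors deposited, per library, raw UMI counts per gene and barcode, made with Cell Ranger on mm10. The submitters' processing notes name Cell Ranger 7.0 and Seurat 4.4.1, and the matrix headers a later Cell Ranger release. The deposited counts are not normalised. Nuclei with 200 to 6000 genes and at most 5% mitochondrial UMIs were kept, and the highest scrublet scores were removed in proportion to the number of nuclei that passed. Variable genes without collagen genes were embedded, corrected for library by a Harmony procedure and clustered with the Leiden method at resolution 1 (scanpy 1.11.5, Python 3.11.15), fibroblasts again at 0.4 on 20 components. Clusters were named where at least 3 markers rose. UMIs were summed per library and class and tested with the robust quasi-likelihood method of edgeR 4.0.16 (R 4.3.3) after filterByExpr and TMM, in 1 fit over all groups, with Benjamini-Hochberg adjustment over all genes. SEs are the log2 change over the root of F. Type VI shares used exact permutation. Self-tests on simulated counts were run. Named genes were the 10 members, the 3 genes most alike in log2(CPM + 1) over class means, among genes of at least 10 CPM in a class, and up to 3 called genes per related list. The genes most alike to Col14a1 are not reported here. Members, lists and tests were chosen with earlier results of these data known. Libraries are single mice, so p-values measure the spread between libraries, in which mouse and run or batch are mixed. The Bleo_NVP libraries all had run number 4, so their spread holds no difference between runs. Replicate numbers pair PBS_vehicle with PBS_NVP, where same-numbered libraries deviated together (r = 0.60, 0.38 and 0.41 in fibroblasts), partly as shared run numbers, and not the bleomycin groups. All replicate pairs differed by more than sampling noise. The alternatives were DESeq2 1.42.0, RLE scaling, no filter, only the groups compared, a replicate block, a run block, left-out libraries and other nuclei filters.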

Additional observations from a re-analysis of the deposited data

Results flagged for a closer look

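The Col8a1 signal in nuclei outside the named classes drew attention, because no named class holds them. They enter the comparisons over all nuclei, and so the Col8a1 values given there. The unnamed cluster led by Tcerg1l held 1699 Col8a1 UMIs in 118 nuclei, at 2923 CPM, where a count of 0 would allow up to 3. It lay at 698 CPM or higher in every library, and its levels did not separate the groups. The cause was not tested.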

How the results depend on the processing

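The 104 log2 changes tested for the members were recomputed under alternatives 2246 times. None that passed a threshold changed direction, 55 recomputed values lost the threshold and 42 gained it. Values past the threshold in neither fit changed sign 97 times. The cause of the changes below was not tested. In Bleo_NVP against Bleo_vehicle, the count of members called in fibroblasts, 1, became 4 with DESeq2, 3 without a filter on low counts, 3 with the replicate block, 2 with doublets kept, 2 without batch correction, and 0 with only the groups compared, with stricter nuclei, without the subclusters led by other-class genes and with only the named subtypes (the latter settings chosen after seeing the data). Leaving out 1 library gave 0 to 4. In Bleo_vehicle against PBS_vehicle the count of 1 became 3 with DESeq2, 2 without a filter, 0 with only the groups compared, 4 with the replicate block, 2 with doublets kept and 3 without batch correction, and 0 to 3 with 1 library left out. For the interaction it was 1 without a filter and 0 to 1 with 1 library left out. Over all nuclei, the 2 members called in Bleo_NVP against Bleo_vehicle became 1 with only the groups compared and 1 with stricter nuclei (0 to 4 with 1 library left out). The 1 called in Bleo_vehicle against PBS_vehicle became 2 with DESeq2, 2 with the replicate block, 0 with only the groups compared and 0 with stricter nuclei (0 to 3). The interaction gave 1 with DESeq2 and 1 with the replicate block (0 to 1). In other classes the counts of 2 ranged from 0 to 6 and from 0 to 8 with 1 library left out, and the interaction from 0 to 3. In subtypes the replicate block gave 1 in Bleo_NVP against Bleo_vehicle and 1 in Bleo_vehicle against PBS_vehicle, and left-out libraries 0 to 1 and 0 to 2. The Col13a1 calls in alveolar fibroblasts among these leave Bleo_vehicle with 1 library, assumed to vary like the other groups. In other classes the replicate block added Col6a3 in arterial endothelium in both comparisons with Bleo_vehicle and lost Col6a3 in general capillary endothelium. In those classes the block changed no other member call, and its numbers pair the PBS groups only. In the bleomycin comparisons same-numbered fibroblast libraries correlated at r = -0.08 to 0.29. Averaged over nuclei scaled to equal totals, mesothelial exceeded fibroblast nuclei for Col6a2 (ratio 0.837 of fibroblast to mesothelial), and the other 9 members kept their highest class. Over all nuclei, type VI shares moved by -5.55 and 4.24 percentage points (Col6a1, Bleo_NVP minus Bleo_vehicle and Bleo_vehicle minus PBS_vehicle) and by 6.76 and -7.76 (Col6a3). Genes of few UMIs, such as Col8a1 in fibroblasts, limit what these depths can show.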
